A study of Mus musculus with 2 samples.

Results

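The cyclin-dependent kinase (CDK) inhibitors of the CIP/KIP and INK4 families are 7 genes of the 24091 in a table of RNA-seq read counts from mouse splenic γδ T cells, chosen by symbol as family members and not by their values. The CIP/KIP family holds 3 of them (Cdkn1a, Cdkn1b and Cdkn1c) and the INK4 family 4 (Cdkn2a, Cdkn2b, Cdkn2c and Cdkn2d). Counts were available for 2 libraries, 1 labelled IL-2 expanded and 1 labelled freshly isolated. γδ T cells are the T lymphocytes that carry a γδ receptor in place of the αβ receptor of most T cells. Per the labels' protocols, cells were sorted by flow cytometry and expanded on plate-bound anti-CD3 with soluble anti-CD28 and recombinant mouse IL-2 (interleukin 2) at 100 U/ml, with 5 days given for the expansion. The protocols are worded alike for both libraries, and only its treatment label marks the freshly isolated one, which is read here as not cultured, so activation, culture and IL-2 could not be told apart. Strain, age and genotype are not given in the sources used here.

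CDK inhibitors are small proteins that hold back the kinases of the cell cycle. INK4 proteins bind CDK4 and CDK6 and keep D-type cyclins from activating them, while CIP/KIP proteins bind assembled cyclin-CDK complexes, above all those of CDK2. In resting T cells p27, the product of Cdkn1b, is known to be abundant and to be lost when IL-2 drives entry into the cycle. The Cdkn2a locus is known for its rise in cultured and ageing cells and encodes 2 unrelated proteins.

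The total count was 22204099 in the expanded and 20379385 in the freshly isolated library, and 1 count was worth 0.0476 and 0.0465 CPM in them (counts per 1000000 of the scaled library size). Each group had a single library, so differences were not tested and have no check by replicates. Intervals given are exact 95% intervals of a ratio of counts and cover counting error only. Of 10 T cell markers, 6 lay within 2-fold, as did 6164 of all 11715 measured genes, 1 was higher and 3 were lower. Cd3e stood at 688 CPM in the expanded and 734 CPM in the freshly isolated library, Thy1 at 2278 and 847 CPM, Lck at 563 and 1184 CPM, Cd2 at 76.2 and 396 CPM, and Cd5 at 4.42 and 132 CPM. Markers of several other spleen cell types were lower in the expanded library. The summed level of 15 macrophage markers was 24.5 CPM in the expanded library, where 9 of them were at 0 counts, and 928 CPM in the freshly isolated library, where none was. The 11 B cell markers summed to 4.04 CPM with 6 at 0 in the expanded library, and to 934 CPM with none at 0 in the freshly isolated library. The 10 dendritic cell and MHC class II genes summed to 14.6 CPM in the expanded and 1298 CPM in the freshly isolated library, and the 7 erythroid markers to 0.381 and 89.5 CPM. The 6 platelet markers summed to 0.333 and 5.67 CPM, and the 9 stromal markers to 130 and 181 CPM. The 9 neutrophil markers went the other way, at 17.8 and 1.58 CPM. Almost all of their expanded sum was Ly6g, with 374 counts there and 0 in the freshly isolated library. The 14 immediate early and dissociation genes summed to 799 CPM in the expanded and 17716 CPM in the freshly isolated library. In such bulk libraries, fewer cells of a type and less RNA per cell cannot be told apart, and the part of these cells and of dissociation in the results below was not tested.

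All 7 inhibitors were measured, which here means an average CPM of 1 or more across the 2 libraries, but they went in different directions. Cdkn1a, Cdkn2a, Cdkn2b and Cdkn2c were higher by 2-fold or more in expanded cells, Cdkn1b and Cdkn1c were lower by 2-fold or more, and Cdkn2d lay between. Among the 11715 genes measured, 22.4% were at least 2-fold higher and 25% at least 2-fold lower. At least 4-fold higher were 3 inhibitors (background 8.92%), and 2 were at least 4-fold lower (background 13.5%). On the log2 scale, with a prior count of 2, the median fold of expanded over freshly isolated was 1.71 for the 7 inhibitors and 0.04 for all measured genes. Since members lay on both sides of 0, this median is no measure of a common shift. Cdkn1c passed the filter on low counts only through the freshly isolated library, and Cdkn2a and Cdkn2b only through the expanded library, so each of these had to differ.

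**Figure D1:**
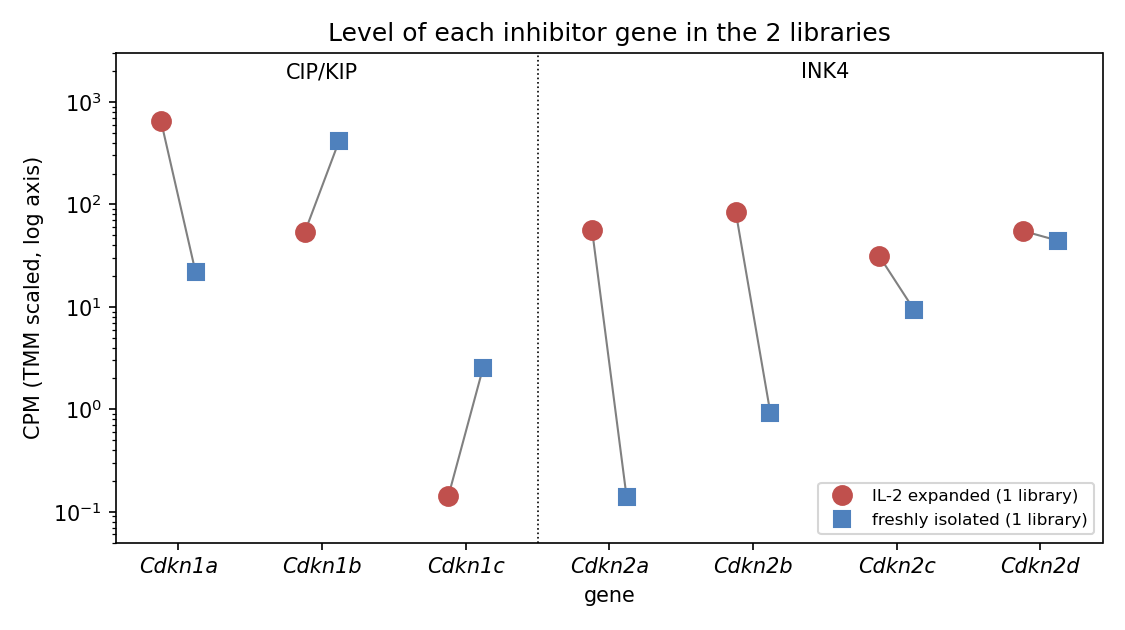
CPM on a log axis for each inhibitor gene in the IL-2 expanded library (red circles) and in the freshly isolated library (blue squares), with 1 library each and a grey line joining the values of 1 gene. Cdkn1a stands at 647 CPM in the expanded library and 21.9 CPM in the freshly isolated library, and Cdkn1b the other way round at 53.3 and 419 CPM, while the Cdkn2d symbols lie nearly level at 55.0 and 44.3 CPM.

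Within the CIP/KIP family, Cdkn1a and Cdkn1b moved in opposite directions. Cdkn1a, which encodes p21, a p53-induced inhibitor of CDK2 complexes that also binds the replication clamp PCNA, lies on chromosome 17 (29090979 to 29100722, plus strand, build GRCm38). It had 13603 counts (647 CPM) in the expanded library and 471 counts (21.9 CPM) in the freshly isolated library. It was thus 29.6-fold higher (interval 26.97 to 32.5), and 195 of the 11715 measured genes (1.66%) had a larger log2 fold. Cdkn1b, which encodes p27, lies on chromosome 6 (134920401 to 134925525, plus strand). It had 1120 counts (53.3 CPM) in the expanded library and 9018 counts (419 CPM) in the freshly isolated library. Cdkn1b was thus 7.86-fold lower in expanded cells (counting interval 7.39 to 8.37), and 8.50% of measured genes had a lower log2 fold. Per kilobase of exon, Cdkn1a was the most abundant inhibitor of the expanded library and Cdkn1b that of the freshly isolated library. They did not simply change places. Cdkn1b lay below Cdkn2b, Cdkn2a and Cdkn2d in the expanded library, and Cdkn1a below Cdkn2d in the freshly isolated library. Per kilobase, Cdkn1a stood 15.6-fold above Cdkn1b in the expanded library, and Cdkn1b 14.9-fold above Cdkn1a in the freshly isolated library. These ratios within a library do not depend on how the libraries were scaled to each other, but they do depend on the length taken for each gene. With the longest transcript as length they were 26.6-fold and 8.75-fold, and with the deposited lengths 23.9-fold and 9.72-fold.

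The third CIP/KIP gene was scarce in both libraries. Cdkn1c, the imprinted gene of p57, lies on chromosome 7 (143458339 to 143461050, minus strand). It had 3 counts (0.143 CPM) in the expanded library and 54 counts (2.51 CPM) in the freshly isolated library. The ratio was 17.6-fold lower in the expanded library, with a counting interval of 5.70 to 87.9. At this depth the size of that difference was poorly determined. In the same libraries Vcam1 and Sirpa, the 2 macrophage markers furthest down, had 0 counts in the expanded library, against 166 and 126 CPM in the freshly isolated library. Of the 15 macrophage markers, 14 were at least 2-fold lower (25% of all measured genes were). The same held for all 9 measured B cell markers, all 7 measured dendritic cell and MHC class II genes and all 5 measured erythroid markers. Macrophage markers were thus not alone in this. Which cells the Cdkn1c counts came from was not tested.

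The sequences before the starts of Cdkn1a and Cdkn1b are shown because this pair of genes went in opposite directions. RefSeq windows (build GRCm38.p6) were at hand for 6 of the 7 inhibitors, all but Cdkn1c, with 9 windows in all, and the 250 bases before the start were searched on both strands. The motifs were CATGNNNNNNCATG (the repeated core of a p53 site), TTCNNNGAA (STAT), GTAAACA (FOXO), GGGCGG (GC box), TTTGGCGC and TTTCCCGC (both E2F), and no match overlapped a match of another motif. Capitals mark every match. The Cdkn1a window belongs to the upstream of its 2 starts (chr17:29090729-29090978, plus strand) and the Cdkn1b window to its single listed start (chr6:134920151-134920400, plus strand).
Cdkn1a: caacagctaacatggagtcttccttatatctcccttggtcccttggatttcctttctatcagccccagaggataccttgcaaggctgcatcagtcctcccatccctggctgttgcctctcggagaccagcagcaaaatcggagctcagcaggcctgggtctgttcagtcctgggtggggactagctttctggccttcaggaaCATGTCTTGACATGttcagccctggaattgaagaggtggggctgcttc
Cdkn1b: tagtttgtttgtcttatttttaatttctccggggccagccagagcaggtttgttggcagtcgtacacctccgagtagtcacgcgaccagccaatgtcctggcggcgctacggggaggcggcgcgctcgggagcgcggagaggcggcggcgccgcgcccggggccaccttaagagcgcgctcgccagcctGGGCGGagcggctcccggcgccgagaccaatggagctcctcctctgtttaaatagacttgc
The Cdkn1a window held the p53 core repeat 48 to 35 bases before the start, a motif found in 0.488% of 32817 windows of this length. Since the motifs were chosen after the sequences were seen, such shares describe the motifs and do not test the matches. The window of its downstream start, at 29093769, held 2 GC boxes and no p53 core repeat. The Cdkn1b window held 1 GC box, a motif found in 32.7% of windows. None of the 9 windows held the STAT motif (7.01% of all windows) or the FOXO motif (3.16%), which says only that these letters are not in these 250 bases.

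All 4 INK4 genes had higher CPM in the expanded library, but by very different amounts. Cdkn2a and Cdkn2b were close to undetected in the freshly isolated library. Cdkn2a encodes p16, the INK4 inhibitor linked to cell senescence, and from another first exon and reading frame p19Arf, which inhibits MDM2 and so stabilises p53. It lies on chromosome 4 (89274473 to 89294619, minus strand). Cdkn2a had 1172 counts (55.8 CPM) in the expanded library and 3 counts (0.139 CPM) in the freshly isolated library. The ratio was 400 with a counting interval of 137 to 1943, wide because of the 3 counts, and 33 measured genes had a larger log2 fold. Cdkn2b encodes p15, an INK4 inhibitor known as a target of TGF-β signalling in epithelial cells, and its span begins 11669 bases beyond that of Cdkn2a (chromosome 4, 89306289 to 89311032, minus strand). Cdkn2b had 1758 counts (83.6 CPM) in the expanded library and 20 counts (0.929 CPM) in the freshly isolated library, 90.0-fold higher (interval 58.1 to 148). A larger log2 fold was found for 83 measured genes (0.708%). Both genes of the locus were among the genes furthest up, but they passed the filter on low counts only through the expanded library. They therefore had to be higher there, and these ranks are a description only. Their levels in the expanded library were similar, at 60.2 CPM per kilobase for Cdkn2b and 47.6 CPM per kilobase for Cdkn2a.

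Counts per gene cannot separate p16 from p19Arf. In the GENCODE M21 annotation, the Cdkn2a transcript that starts at 89282192 (p16) has 852 bases and the one that starts at 89294653 (p19Arf) has 895, and 575 exon bases are common to both. Which of them supplied the 1172 counts was not resolved. The use of strand in counting was not given, and Gm12610 spans Cdkn2b on the opposite strand. It had 13 counts in the expanded and 0 in the freshly isolated library, and no exon base in common with Cdkn2b in GENCODE.

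The windows before the RefSeq p19Arf start of Cdkn2a and before the RefSeq start of Cdkn2b are shown because these neighbouring genes were higher together. They lie at chr4:89294620-89294869 and chr4:89311033-89311282, both on the minus strand. The GENCODE start of p19Arf given above lies inside the Cdkn2a window. Distances are therefore counted from the RefSeq start at 89294619. Capitals mark the same motifs as above.
Cdkn2a: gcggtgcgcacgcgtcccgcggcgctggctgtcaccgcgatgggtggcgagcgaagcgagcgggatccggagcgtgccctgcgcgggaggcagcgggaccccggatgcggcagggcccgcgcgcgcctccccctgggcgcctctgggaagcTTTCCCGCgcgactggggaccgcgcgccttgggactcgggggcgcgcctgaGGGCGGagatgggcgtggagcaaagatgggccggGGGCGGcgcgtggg
Cdkn2b: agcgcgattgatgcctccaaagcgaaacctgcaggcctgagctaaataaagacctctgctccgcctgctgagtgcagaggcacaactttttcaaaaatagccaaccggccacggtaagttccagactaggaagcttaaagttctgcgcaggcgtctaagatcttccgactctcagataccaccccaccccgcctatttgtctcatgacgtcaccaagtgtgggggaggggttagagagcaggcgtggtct
The Cdkn2a window held the E2F motif TTTCCCGC 99 to 92 bases before the start, a motif found in 0.893% of all windows, together with 2 GC boxes. This motif too was chosen after the sequences were seen, so its share is no test of the match. It was rich in G and C (78.4%, against a median of 52.4% over all windows). The Cdkn2b window (53.6% G and C) held none of the motifs, and neither did the window before the p16 start at 89282192. The 2 neighbours therefore had no searched motif in common in these windows.

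**Figure D2:**
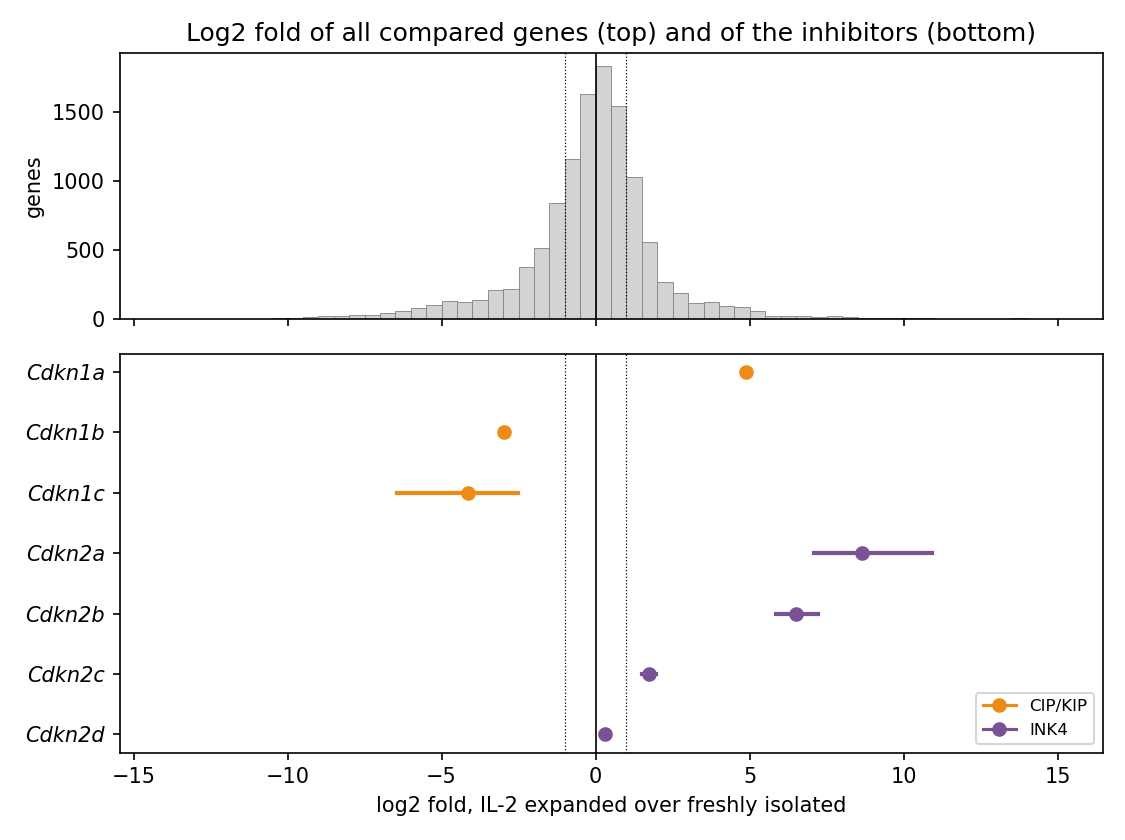
Top, number of genes by log2 fold (IL-2 expanded over freshly isolated, prior count of 2) for the 11715 measured genes. Bottom, the log2 ratio of CPM without a prior count for each inhibitor (points, orange for CIP/KIP and purple for INK4) with its exact 95% counting interval (bars, hidden by the point where short), where dotted lines mark 2-fold and the Cdkn2a, Cdkn2b and Cdkn1a points lie far to the right of most genes.

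The other INK4 genes were measured well in both libraries and were closer together. Cdkn2c encodes p18, an inhibitor known to restrain the proliferation of mouse lymphocytes, and lies on chromosome 4 (109660876 to 109666756, minus strand), far from the Cdkn2a locus. It had 652 counts (31.0 CPM) in the expanded library and 202 counts (9.38 CPM) in the freshly isolated library, 3.31-fold higher (interval 2.82 to 3.89). Cdkn2d encodes p19Ink4d, a protein unrelated to p19Arf, and lies on chromosome 9 (21288464 to 21291209, minus strand). It had 1156 counts (55.0 CPM) in the expanded library and 954 counts (44.3 CPM) in the freshly isolated library. Cdkn2d was 1.24-fold higher (interval 1.14 to 1.35), and its log2 fold was 0.31, or 0.15 with scaling by total count, under which the median of all genes was -0.12 in place of 0.04. Cdkn2d and Cdkn2c were the INK4 genes with the highest levels per kilobase in the freshly isolated library, at 28.2 and 3.49 CPM per kilobase. In the expanded library they stood at 34.9 and 11.5 CPM per kilobase, below Cdkn2b and Cdkn2a.

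The mixture of inhibitor transcripts differed between the libraries. Summed over the 7 genes, the level per kilobase of exon was 348 CPM per kilobase in the expanded and 132 in the freshly isolated library. In the expanded library Cdkn1a made up 52.3% of it, Cdkn2b 17.3%, Cdkn2a 13.7%, Cdkn2d 10.04%, Cdkn1b 3.36%, Cdkn2c 3.32% and Cdkn1c 0.0201%. In the freshly isolated library Cdkn1b made up 69.8%, Cdkn2d 21.4%, Cdkn1a 4.67%, Cdkn2c 2.65%, Cdkn1c 0.933%, Cdkn2b 0.507% and Cdkn2a 0.0902%. The order in the freshly isolated library was the same with each of 3 gene lengths. In the expanded library the neighbours Cdkn2a and Cdkn2b, and also Cdkn1b and Cdkn2c, exchanged places with another length. INK4 genes together held 44.3% of the sum in the expanded library and 24.6% in the freshly isolated library. The shares also depend on the length. With the longest transcript as length, Cdkn1a held 62.7% in the expanded library. The INK4 shares there were all smaller, with Cdkn2a at 12.5%, Cdkn2b at 12.1%, Cdkn2d at 7.78% and Cdkn2c at 2.53%. The INK4 share then differed less between the libraries.

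**Figure D3:**
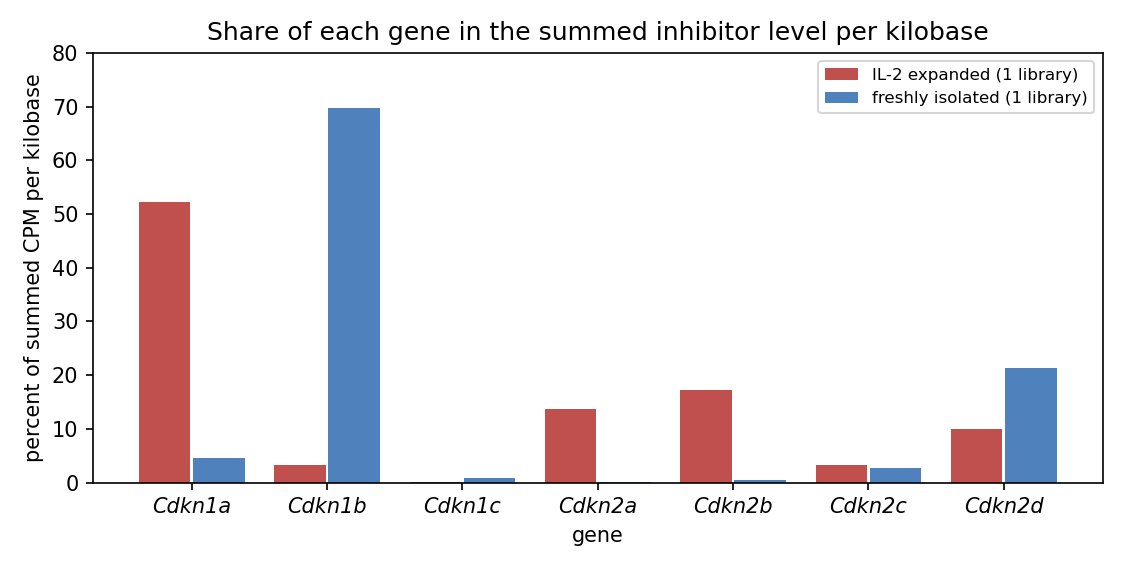
Share of each inhibitor gene, in percent, in the summed CPM per kilobase of exon of the 7 genes, within the IL-2 expanded library (red bars) and within the freshly isolated library (blue bars), 1 library each. Cdkn1a takes 52.3% of the expanded library's sum and Cdkn1b 69.8% of the freshly isolated library's sum.

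The kinases and cyclins that the inhibitors act on were mostly higher in the expanded library. Of 8 G1 cyclins and kinases, 5 were at least 2-fold higher (22.4% of all measured genes were) and 1 was lower (25% of all), with a median log2 fold of 1.52. These 2 shares are the background for each list below. Cdk6 was 10.0-fold higher (1086 CPM in the expanded and 109 CPM in the freshly isolated library), Cdk4 2.51-fold higher (264 and 105 CPM), and Ccnd2, a D-type cyclin, stood at 1579 and 482 CPM. Ccne1 and Ccne2, the E-type cyclins that activate CDK2, were 16.5-fold and 21.9-fold higher. Cdk2 itself was level at 38.8 CPM in the expanded and 37.2 CPM in the freshly isolated library, and Ccnd1 was the lower gene, at 1.52 and 8.64 CPM. All 4 cyclins and kinases of S to M phase were higher, among them Cdk1 at 160 and 3.34 CPM. Of 15 proliferation markers, 14 were at least 2-fold higher and none was lower, and their sum was 4440 CPM in the expanded and 703 CPM in the freshly isolated library. Cdkn1a, Cdkn2a, Cdkn2b and Cdkn2c were thus higher in the library with more transcripts of cycling cells. Whether the same cells held both could not be told from bulk libraries.

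Set against their kinases within each library, the families differed. The summed INK4 level was 154 CPM per kilobase in the expanded and 32.4 in the freshly isolated library, and the summed Cdk4 and Cdk6 level was 159 and 40.2. The ratio of INK4 to Cdk4 and Cdk6 was therefore 0.970 in the expanded and 0.808 in the freshly isolated library. The ratio of CIP/KIP to Cdk2 and Cdk1 was 5.03 in the expanded library and 14.9 in the freshly isolated library, 0.337 times as large, although the CIP/KIP sum was higher (194 and 99.4 CPM per kilobase). That figure was 0.782 when the longest transcript was taken as each gene's length. These are ratios of transcript levels and not of proteins.

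Genes of p27 and p21 turnover did not move together. SCF-SKP2 is the ubiquitin ligase that marks phosphorylated p27 for degradation, with CKS1 as its cofactor. Of 9 measured genes in the list, 3 were at least 2-fold higher (background 22.4%), 1 was lower (background 25%) and 5 lay between, with a median log2 fold of 0.65. Of the higher genes, Cks1b acts on p27, and Dtl and Ddb1 belong to a ligase of p21. Cks1b was 13.5-fold higher (79.5 CPM in the expanded and 5.90 CPM in the freshly isolated library), while Skp2 stood at 13.7 and 7.25 CPM, just under 2-fold apart. Dtl, which directs that ligase (CRL4) to p21, was also 13.5-fold higher (64.6 and 4.79 CPM), and Ddb1, a subunit of that ligase, was 2.29-fold higher. Rnf123, part of a ligase that acts on p27 in the cytoplasm, was 3.58-fold lower (48.8 and 175 CPM). The RB family, whose phosphorylation the inhibitors hold back, was within 2-fold for all 3 genes, with Rbl2 at 259 and 179 CPM.

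Among factors known to raise Cdkn1b or other inhibitor genes, Klf2 and Klf4 were the furthest down. Of 13 FOXO, TGF-β and KLF genes, 7 were at least 2-fold lower (background 25%) and 1 was higher (background 22.4%), with a median log2 fold of -1.13. Klf2, a quiescence factor of T cells, was 658-fold lower (3.47 CPM in the expanded and 2284 CPM in the freshly isolated library) and Klf4 362-fold lower (1.19 and 431 CPM). Klf2, Klf4 and Klf6 are also induced by tissue dissociation. Of the 14 immediate early genes, 12 were at least 2-fold lower in the expanded library and 1 was higher. The part of dissociation in the Klf differences was not tested. Tgfb1, the ligand of the TGF-β pathway, was the higher member (532 and 171 CPM). Myc, which represses Cdkn1a and Cdkn2b with its partner MIZ1 (Zbtb17), stood at 143 CPM in the expanded and 116 CPM in the freshly isolated library, and Zbtb17 at 30.4 and 45.02 CPM.

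Genes of the p53 pathway other than Cdkn1a had no common direction. Of 18 measured, 8 were at least 2-fold higher (background 22.4%) and 6 at least 2-fold lower (background 25%), with a median log2 fold of 0.44. Trp53, which encodes p53, was level at 174 CPM in the expanded and 168 CPM in the freshly isolated library. Phlda3, a p53 target that restrains AKT, was 22.9-fold higher (35.2 and 1.53 CPM). Eda2r, a TNF receptor family gene induced by p53, had 113 counts (5.38 CPM) in the expanded library and 0 counts in the freshly isolated library, which allow up to 0.139 CPM there (3 counts). The furthest down were Btg2 at 113 and 1255 CPM and Plk2 at 12.6 and 78.9 CPM, both of which are also known as immediate early genes. The part of dissociation in these 2 differences was not tested either. Proteins of the Polycomb group silence the Cdkn2a and Cdkn2b locus. Of 11 listed genes of repressors of the locus, not all of them Polycomb genes, 7 had transcript levels within 2-fold. Of the rest, 1 was at least 2-fold higher (background 22.4%) and 3 were lower (background 25%), with a median log2 fold of -0.02 over the list. Cbx7, a Polycomb reader known to repress the locus, was 34.8-fold lower (7.04 CPM in the expanded and 245 CPM in the freshly isolated library), whereas the methyltransferase gene Ezh2 was 4.19-fold higher (183 and 43.8 CPM).

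**Figure D4:**
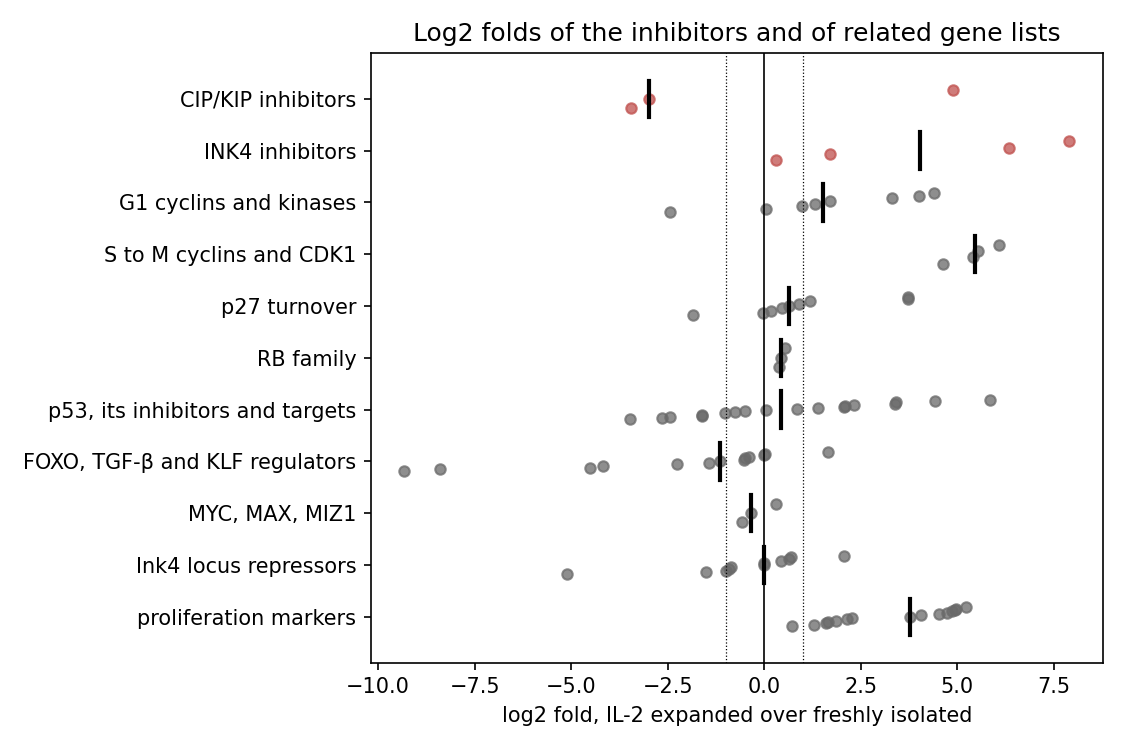
Log2 fold (IL-2 expanded over freshly isolated, prior count of 2) of each measured gene (points, red for the inhibitors and grey for other genes) in the inhibitor families and 9 related lists, with the list median as a black bar and 2-fold marked by dotted lines. The CIP/KIP points lie on both sides of 0, the INK4 points all lie to its right, and the medians of the S to M cyclins (5.47) and of the proliferation markers (3.77) lie far to the right.

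With 2 libraries, likeness of pattern can only mean similar CPM in each. By the distance between log2 CPM values over the 2 libraries, the genes nearest to Cdkn1a were Mki67 (distance 0.26; 754 CPM in the expanded and 24.1 CPM in the freshly isolated library) and Cyp51 (0.36). Nearest to Cdkn1b were Myb (0.02; 53.3 and 424 CPM) and Csrnp1 (0.14), nearest to Cdkn2a were Esm1 (0.34) and Igf2bp3 (0.42), and nearest to Cdkn2b were Trim16 (0.06) and Slc24a3 (0.16). For Cdkn2c they were Thg1l (0.04) and Cbx3 (0.05), for Cdkn2d Ap3s2 (0.01) and Champ1 (0.01), and for Cdkn1c Sec16b and Cd46, each at 0.143 CPM in the expanded library. Many of the 11715 genes lie close to any point of so small a space, so these neighbours are a description only.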

How the data were processed

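RNA-seq of total RNA was available for 2 libraries, 1 per group, and the deposited values are raw, whole read counts for each gene. Per the submitters' processing notes, the builds were mm10 and GRCm38, and the tools edgeR 3.28.1, HTSeq 0.6.0, STAR 2.6.0 and bcl2fastq 2.18.0.12. Roles, annotation release and use of strand are not given in the sources used here. Columns were matched to libraries by title.

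CPM and log2 folds were computed from the deposited counts with TMM factors (edgeR 4.0.16, R 4.3.3) over all genes, a prior count of 2 and a filter of a mean of at least 1 CPM. Folds of single genes are plain CPM ratios with conditional binomial (Clopper-Pearson) intervals (scipy 1.17.1). Since no molecular identifiers are recorded, reads are not independent molecules and intervals cover counting error only. No p-value was computed. Levels per kilobase used the union of GENCODE M21 exons, since levels of different genes compare only per length. The calculation was run on simulated counts that held counting error only. That run checks the arithmetic and cannot speak to variation between samples. Coordinates are as deposited, 1-based, and 5 of 7 inhibitor spans equal those in RefSeq GRCm38.p6.

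The inhibitors were listed by family and not by their values, though earlier results of these data were known. The gene lists were also drawn with those results known, and the motifs were chosen after the sequences were seen. The rule for naming allowed all inhibitors, the genes of the G1, p27, RB and MYC lists, the 2 highest and the 2 lowest of every other list by the interval end nearest to no change, and the 2 genes nearest to each inhibitor. The text names a selection of these. Cd3e, Lck, Pecam1, Trp53, Klf6, Gm12610, Cdk2ap1, Cdkn2aip and Cdkn2aipnl stand outside this rule and were named after their values were seen. Alternatives were 4 other scalings (total count, DESeq2 1.42.0 size factors, upper quartiles, and total count with each library's 50 most abundant genes left out), prior counts of 0.5 and 5, no filter or a mean of at least 5 CPM, a 4-fold threshold, and other gene lengths.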

Additional observations from a re-analysis of the deposited data

How the results depend on the processing

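All 7 inhibitors kept the sign of their log2 fold under every scaling, prior count and filter that retained them. The log2 fold ranged from 4.72 to 4.88 for Cdkn1a, from -3.13 to -2.97 for Cdkn1b, from -3.93 to -2.86 for Cdkn1c, from 7.22 to 8.42 for Cdkn2a, from 6.17 to 6.46 for Cdkn2b, from 1.56 to 1.72 for Cdkn2c and from 0.15 to 0.31 for Cdkn2d. With a filter of a mean of at least 5 CPM, Cdkn1c dropped out, which left 1 inhibitor at least 2-fold lower and a median log2 fold of 3.30. At 4-fold in place of 2-fold, 1045 of all measured genes were higher and 1578 lower. The ratio of INK4 to Cdk4 and Cdk6, expanded over freshly isolated, was 1.20 with the union of exons, 1.32 with the longest transcript and 1.29 with the deposited gene length, an alternative chosen after seeing the data. For CIP/KIP to Cdk2 and Cdk1 it was 0.337, 0.782 and 0.542. Depth limits Cdkn1c and Cdkn2a, each with 3 counts in 1 library. No paired analysis was possible because each group has 1 library.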

Other observations

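Genes with related names were chosen for mention partly after their values were seen. Cdkn3, which encodes a phosphatase that acts on CDKs and not a member of either inhibitor family, had 525 counts (25.0 CPM) in the expanded library and 12 counts (0.557 CPM) in the freshly isolated library, 44.8-fold higher (interval 25.4 to 87.3). Cdkn2aip, whose product binds p19Arf, stood at 22.5 CPM in the expanded and 62.2 CPM in the freshly isolated library, 2.77-fold lower (interval 2.49 to 3.08), so it went the other way from Cdkn2a. Cdkn2aipnl stood at 106 and 73.7 CPM. The CDK2-associated genes Cdk2ap1 (8.80 CPM in the expanded and 3.81 CPM in the freshly isolated library) and Cdk2ap2 (61.5 and 134.5 CPM) also went in opposite directions. A list of 12 genes whose products activate, inhibit or bind CDKs included Cdkn3, Cdk2ap1 and Cdk2ap2. Of these 12, 5 were higher by 2-fold or more (22.4% of all measured genes were) and 1 was lower (25% of all). The median log2 fold was 0.83. Since the list mixes activators and inhibitors, these counts are no measure of CDK activation. Cdc25c, a phosphatase that activates CDK1, was 20.1-fold higher (19.6 and 0.976 CPM), while Cdc25b of the same family stood at 74.4 and 122 CPM.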
